A study of Homo sapiens with 6 samples.

Results

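The heat shock proteins and the DNAJ proteins are the main molecular chaperones of human cells. Their genes were followed in RNA-seq libraries of KYSE70 and of NRF2null-KYSE70. Members were chosen by symbol alone: the HSPA and HSPH1 (HSP70 and HSP110) genes, the HSP90 genes, the chaperonin genes HSPD1 and HSPE1, the small heat shock protein genes named HSPB, and the DNAJA, DNAJB and DNAJC genes. The rule gave 72 of the 58884 genes in the table, and 62 of them had a mean normalized count of at least 10 and were tested among 15994 genes.

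KYSE70 is an established cell line of human esophageal squamous cell carcinoma (ESCC) that carries a mutant NFE2L2, the gene of the transcription factor NRF2. NRF2null-KYSE70 is 1 clone of KYSE70 grown out after CRISPR-Cas9 cutting of NFE2L2. Both lines were untreated and grown in RPMI1640 with fetal bovine serum, and each had 3 libraries. The comparison asked how the RNA of a cell with active mutant NRF2 differs from that of its NRF2-deficient derivative. A difference was one between 1 clone and its parental line. No source says that the libraries came from separate cultures, so the p-values measure only the spread between these libraries.

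HSP70 proteins bind exposed hydrophobic stretches of other proteins and release them in a cycle driven by ATP. DNAJ proteins, also called HSP40, bring clients to HSP70 and stimulate its ATPase, and the nucleotide exchange factors (HSPH1, HSPA4 and HSPA4L among them) reset it. HSP90 finishes the folding of kinases and receptors, HSPD1 and HSPE1 form the folding chamber of mitochondria, and small heat shock proteins hold unfolded proteins without ATP. In the cytosol the inducible genes are switched on by HSF1, which binds repeats of the letters GAA. In the endoplasmic reticulum (ER), where HSPA5 (BiP) is the HSP70, they are switched on by the unfolded protein response through ATF6, XBP1 and ATF4.

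Each library held between 52072801 and 63975313 reads assigned to genes. Normalized counts are read counts divided by 1 size factor per library, and every log2 fold change compares NRF2null-KYSE70 with KYSE70 after 1 was added to each normalized count, so that changes of weakly expressed genes come out too small. NFE2L2 itself had 9839, 9906 and 10039.8 normalized counts in KYSE70 and 5803, 6041 and 6434 in NRF2null-KYSE70, so the targeted RNA was lower in the direction of the labels but still present. All 9 squamous markers were detected, with a summed level of 330083 to 337532 in KYSE70 and 256896 to 269362 in NRF2null-KYSE70. KRT5 made most of that sum and was lower, as were 2 others, and 6 of the 9 were higher (5 higher and 4 lower after the centring by chromosome arm described below). Of the markers of other cells, DCN and COL1A2 were at 0 in every library, and COL1A1 (fibroblast list), VWF (endothelial list) and PTPRC (leukocyte list) were the ones with a mean of at least 10. The 4 leukocyte markers summed to at most 9.49 in KYSE70 and to between 42.2 and 58.2 in NRF2null-KYSE70. The 3 endothelial markers summed to 133 to 149 and to 275 to 450.3, and the 5 fibroblast markers to 1172 to 1336 and to 479 to 627. Most of the fibroblast sum was COL1A1, while PDGFRB had no read in KYSE70 and 12.2, 14.7 and 15.98 normalized counts in NRF2null-KYSE70. Their part in the results was not tested. In bulk RNA, fewer cells of a type and less RNA per cell cannot be told apart.

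The promoters of 4 members are shown because their genes carry the main contrasts below: HSPA5 for the ER members, HSPB8 and HSPB1 for the small heat shock proteins, and HSPA1B for the heat-inducible HSP70. The sequences are RefSeq windows on GRCh38.p14 that end at or before the start site. Capitals in HSPA5 mark a match to the ER stress response element, which is CCAAT, then 9 of any base, then CCACG, or its reverse complement. In the other 3, capitals mark a heat shock element of 2 units, GAANNTTC or TTCNNGAA.
HSPA5, chr9:125241383-125241593, minus strand: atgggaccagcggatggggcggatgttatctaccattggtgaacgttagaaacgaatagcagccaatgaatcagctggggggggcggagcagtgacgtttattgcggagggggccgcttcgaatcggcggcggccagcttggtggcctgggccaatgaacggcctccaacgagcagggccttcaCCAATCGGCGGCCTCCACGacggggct
HSPB8, chr12:119178681-119178930, plus strand: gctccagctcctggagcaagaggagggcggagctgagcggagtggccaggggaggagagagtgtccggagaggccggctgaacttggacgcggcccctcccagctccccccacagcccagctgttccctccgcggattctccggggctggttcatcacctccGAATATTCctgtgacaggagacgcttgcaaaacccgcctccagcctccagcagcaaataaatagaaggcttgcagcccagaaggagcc
HSPB1, chr7:76302423-76302672, plus strand: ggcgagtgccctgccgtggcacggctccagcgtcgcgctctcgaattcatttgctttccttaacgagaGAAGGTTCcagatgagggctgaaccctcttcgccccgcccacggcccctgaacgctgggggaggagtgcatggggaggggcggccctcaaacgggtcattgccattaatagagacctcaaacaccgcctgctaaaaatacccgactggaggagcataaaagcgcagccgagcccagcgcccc
HSPA1B, chr6:31827488-31827737, plus strand: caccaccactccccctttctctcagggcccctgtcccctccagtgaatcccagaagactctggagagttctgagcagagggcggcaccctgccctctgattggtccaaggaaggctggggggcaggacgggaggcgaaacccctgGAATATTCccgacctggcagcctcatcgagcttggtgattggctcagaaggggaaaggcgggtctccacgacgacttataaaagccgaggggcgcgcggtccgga

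The ER element was rare. It stood in 27 of 35116 promoter windows (0.0769%) and, of the 63 members with a window, in HSPA5 and HSP90B1. Of 20 ER folding and unfolded protein response genes with a window that are not members, CALR, CANX, CRELD2, PDIA6 and XBP1 held it. This motif was searched after the values of HSPA5 and HSP90B1 were known. A heat shock element of 3 units was GAA, TTC and GAA or TTC, GAA and TTC with 2 of any base between units. It stood in 0.490% of windows, 0.608% of all genes with a window and 7 members (11.1%). The 2-unit element, which every 3-unit element contains, stood in 13.5% of windows, 16.2% of all genes with a window and 22 members (34.9%). The same 8 letters, GAATATTC, stood in HSPB8, HSPA1A and HSPA1B. The core of the antioxidant response element bound by NRF2, TGACNNNGC or GCNNNGTCA, stood in 13.3% of windows and 16.1% of all genes with a window. It stood in 11 members (17.5%), a share near that of all genes. They were DNAJA2, DNAJB6, DNAJC10, DNAJC11, HSP90AB1, HSPA12A, HSPA4L, HSPA6, HSPB1, HSPB3 and HSPB6. A match is a description of letters and not a bound site.

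Across the family, most changes were small, and the share of genes called was not far from that of all tested genes. At a limma adjusted p under 0.05, 24 of the 62 tested members were higher in NRF2null-KYSE70, 18 were lower and 20 did not pass. These 42 were 67.7% of the members, beside 57.6% of all tested genes, of which 29.3% were higher and 28.3% lower. With total scaling 20 members were higher and 20 lower. After the median log2 fold change of each member's chromosome arm was subtracted (arm-centring), 18 were higher and 18 lower. Of all 15994 tested genes, 4315 were then higher and 4410 lower. With a cut-off of 1 on the size of the log2 fold change added, 6 members (9.68%) passed, beside 14.7% of all tested genes (7.23% higher, 7.43% lower). HSPA2 and HSPA13 were higher, and HSPB8, DNAJC12, DNAJB4 and HSPB3 were lower. Just inside that threshold was HSPB3 at -1.004 on the log2 scale, and just outside it were DNAJB9 at 0.996 and HSPA5 at 0.989. The median log2 fold change was 0.02 for the members and -0.01 for all tested genes. The median absolute value was 0.27 for the members and 0.36 for all tested genes. For 44 members the 2 sets of libraries were fully apart (71.0%, beside 63.4% of all tested genes), 25 of them higher and 19 lower, beside 32.1% and 31.3% of all tested genes.

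**Figure D1:**
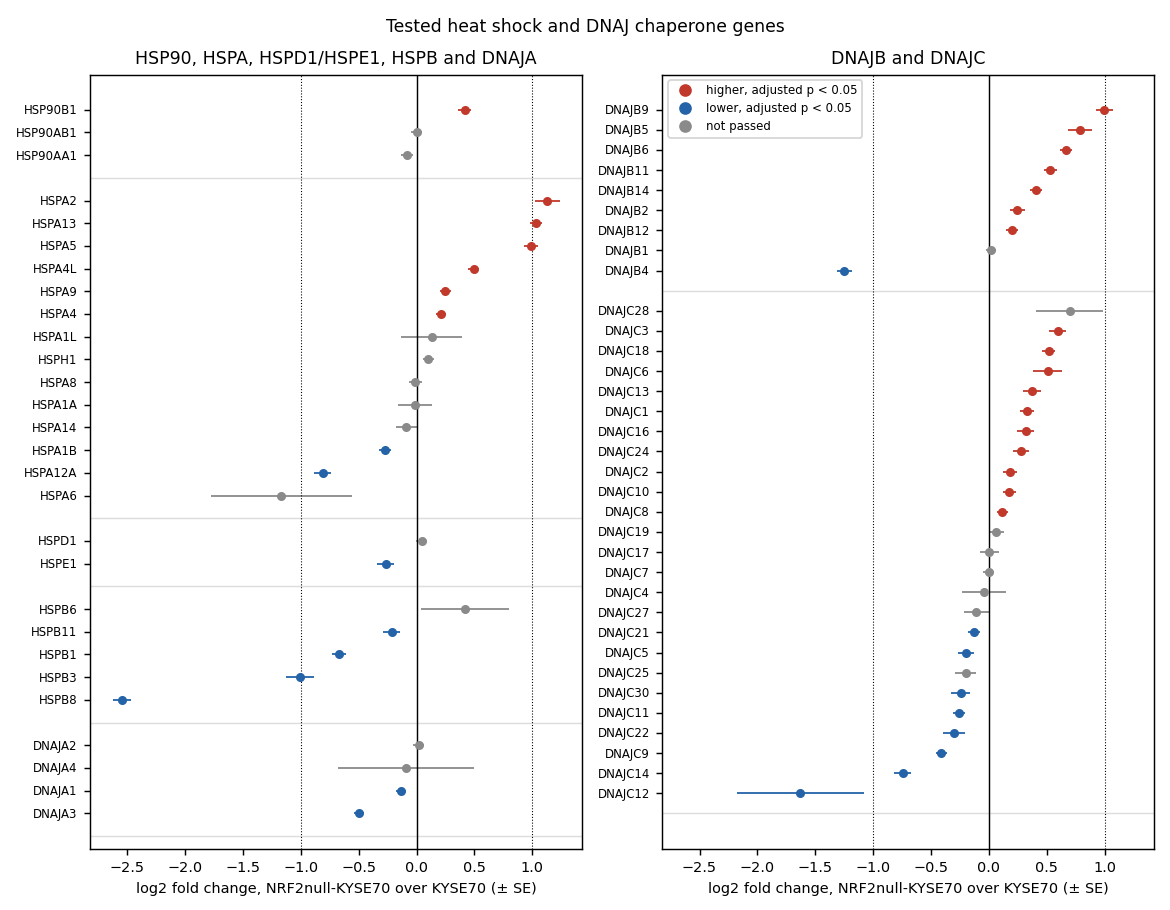
Log2 fold change of NRF2null-KYSE70 over KYSE70 (horizontal axis, point with ± 1 standard error) for the 62 tested members, grouped by class, with dotted lines at -1 and 1. Red and blue points passed a limma adjusted p under 0.05 (24 higher, 18 lower) and grey points did not (20); HSPB8 lies farthest from 0, at -2.55.

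By class, the share of tested genes called was 88.9% in DNAJB, 80% in HSPB, 72% in DNAJC and 57.1% in HSPA and HSPH1. It was 50% in DNAJA, 50% in HSPD1 and HSPE1 and 33.3% in HSP90, beside 57.6% of all tested genes. Of 9 tested DNAJB genes, 7 were higher, 1 was lower and 1 did not pass. The 25 tested DNAJC genes had 10 higher and 8 lower, or 6 higher and 8 lower after arm-centring. The 4 DNAJA genes had 2 lower and none higher (DNAJA2 and DNAJA4 did not pass). Of 14 HSPA and HSPH1 genes, 6 were higher and 2 lower. Of the 5 tested HSPB genes, 4 were lower and none was higher (HSPB6 did not pass). These classes came from gene names, and no test compared one class with another. The share of all reads taken by members went from 1.92% ± 0.019 to 1.95% ± 0.021 (SD, n = 3 per line). The HSPA and HSPH1 share went from 0.591% to 0.694% and the HSPB share from 0.0757% to 0.0445%. The HSP90 share was 0.813% ± 0.015 and 0.786% ± 0.023 (SD, n = 3 per line), with overlapping libraries.

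Most chaperones of the ER were higher in the clone. Of 12 ER members, all tested, 10 were higher, DNAJC14 was lower and DNAJC25 did not pass, with a median log2 fold change of 0.41. This list and the others below were written with earlier results of these data known. The share called was 91.7%, beside 57.6% of all tested genes (29.3% higher, 28.3% lower). After arm-centring, 8 of the ER members were higher and 1 was lower, with a median of 0.26, and with total scaling 8 were higher. Of all 15994 tested genes, 4315 were higher and 4410 lower after arm-centring. The share of reads from ER members went from 0.265% ± 0.0099 to 0.399% ± 0.018 (SD, n = 3 per line). The 50 tested members outside the ER list had 14 higher and 17 lower and a median of -0.0051.

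HSPA5 (ENSG00000044574, chromosome 9, 125234853 to 125241382, minus strand, hg38) encodes BiP, the HSP70 that folds proteins entering the ER and holds its stress sensors inactive. Its normalized counts were 59693, 55599 and 54314 in KYSE70 and 119461, 110993 and 106316 in NRF2null-KYSE70. The lowest NRF2null-KYSE70 library was thus far above the highest KYSE70 library. The level rose 1.99-fold, from 56535 ± 2809 to 112256 ± 6663 (SD, n = 3 per line; log2 fold change 0.99, SE 0.057, limma adjusted p = 1.63e-08). The median log2 fold change of genes on 9q was -0.14, so the arm-centred value of HSPA5 was 1.13. Without KYSE70 library 1, or without NRF2null-KYSE70 library 3, HSPA5 and DNAJB9 also passed the cut-off on the fold change.

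HSPA13 (chromosome 21, 14371115 to 14383484), an HSP70 of the ER and its vesicles, had 4035, 4437 and 3986 normalized counts in KYSE70 and 8518, 8595 and 8345 in NRF2null-KYSE70. Its libraries fell into 2 tight groups, and the rise was 2.04-fold (log2 fold change 1.03, SE 0.052, limma adjusted p = 5.17e-09). On 21q the median log2 fold change was 0.27, and arm-centring left 0.77 for HSPA13, under the cut-off of 1. Total scaling and quantile normalization also placed it under that cut-off. HSP90B1 (chromosome 12, 103930107 to 103953931), the HSP90 of the ER known as GRP94, rose from 63366 ± 2225 to 84572 ± 4664 (SD, n = 3 per line; log2 fold change 0.42, SE 0.053, limma adjusted p = 2.37e-05). Its libraries held 65513, 63516 and 61069.9 in KYSE70 and 89952, 82089.7 and 81674 in NRF2null-KYSE70. Every NRF2null-KYSE70 library was above every KYSE70 library. HSP90B1 lies on 12q, where the median was -0.38, and its arm-centred value was 0.79. Its promoter window held the ER element on each strand, as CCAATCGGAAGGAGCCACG (chromosome 12, 103930216 to 103930234) and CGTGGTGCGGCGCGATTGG (103930321 to 103930339).

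The DNAJ genes of the ER list that were higher rose to different degrees. DNAJB9 (ERdj4), which loads BiP onto the stress sensor IRE1, had 687, 653 and 641 normalized counts in KYSE70 and 1322, 1347 and 1284 in NRF2null-KYSE70. The libraries did not overlap, and the rise was 1.99-fold (log2 fold change 0.996, SE 0.074, limma adjusted p = 1.52e-07). DNAJC3 (p58IPK), which dampens the kinase arm of the stress response, rose 1.51-fold, from 1974 ± 187 to 2973 ± 174 (SD, n = 3 per line; limma adjusted p = 1.86e-05). DNAJB11 (ERdj3), which binds nascent chains in the lumen, rose 1.45-fold, from 6819 ± 304 to 9863 ± 673 (SD, n = 3 per line; limma adjusted p = 4.79e-06). It lies on 3q, with a median of 0.28, and its arm-centred log2 value was 0.25. The membrane-bound DNAJB14, DNAJB12 and DNAJC1 rose by 0.41, 0.20 and 0.33 on the log2 scale. DNAJC10 (ERdj5), a reductase that opens disulfide bonds, rose by 0.18. DNAJB12 and DNAJC10 no longer passed after arm-centring, with limma adjusted p-values of 0.0840 and 0.0763.

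DNAJC14, a membrane-anchored DNAJ protein of the ER, went the other way. It had 1541, 1484 and 1622 normalized counts in KYSE70 and 943, 860.0 and 971 in NRF2null-KYSE70, with no overlap (log2 fold change -0.74, SE 0.074, limma adjusted p = 2.52e-06). It lies on 12q, and its arm-centred value was -0.37. Its exons share 23.2% of their bases with another protein-coding gene on the same strand and 21.96% with ORMDL2 on the opposite strand. Use of strand in the counting was not stated, so reads of these genes could be shared. DNAJC25 had 1109 ± 124 and 960.3 ± 29.3 normalized counts (SD, n = 3 per line), and its libraries overlapped (limma adjusted p = 0.0658).

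**Figure D2:**
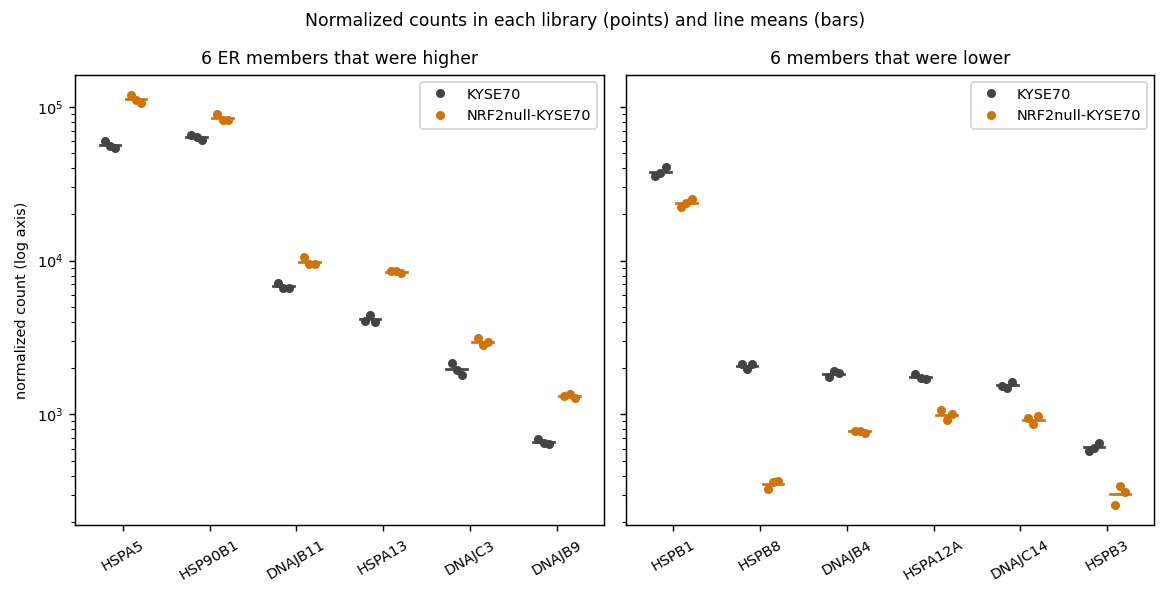
Normalized counts (vertical axis, log scale) in each of the 3 libraries per line (points) with the mean of the line (bar), for 6 ER members that were higher (left) and 6 members that were lower (right) in NRF2null-KYSE70. In each of the 12 genes the points of the lines do not overlap; HSPA5 rises from 54314 to 59693 in KYSE70 to 106316 to 119461 in NRF2null-KYSE70, and HSPB8 falls from at least 1959 to at most 366.

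Other genes of ER folding and of the unfolded protein response were read beside these members. Of 21 such genes, none of them a member, 17 were higher, CRELD2 was lower and MANF, SIL1 and SERPINH1 did not pass, with a median log2 fold change of 0.58. The share called was 85.7%, beside 57.6% of all tested genes (29.3% higher, 28.3% lower). Past both thresholds were 3 of the 21 genes (14.3%, beside 14.7% of all tested genes). They were HYOU1, an ER nucleotide exchange factor for BiP (2.30-fold), SEL1L, an adaptor of ER-associated degradation (2.05-fold), and DDIT3, the stress factor CHOP (2.01-fold). HYOU1 had 9122, 8289.8 and 8309 normalized counts in KYSE70 and 21550.5, 18922 and 18565 in NRF2null-KYSE70 (limma adjusted p = 6.04e-09), with no overlap. The disulfide isomerases PDIA4, PDIA3, PDIA6 and P4HB rose 1.91-fold, 1.83-fold, 1.52-fold and 1.49-fold. The lectin chaperones CALR and CANX rose 1.24-fold and 1.34-fold. Among the regulators, XBP1 rose 1.68-fold, ATF4 1.52-fold, the sensor gene ERN1 (IRE1) 1.62-fold, EIF2AK3 (PERK) 1.27-fold and ATF6 1.17-fold. Not every gene with the ER element in its promoter rose. CRELD2 holds CGTGGCGAACTCGGATTGG (chromosome 22, 49918554 to 49918572) and had 2128 ± 72.4 and 1910.1 ± 90.4 normalized counts (SD, n = 3 per line; log2 fold change -0.16, limma adjusted p = 0.0441). After arm-centring, 19 of the 21 genes were higher and 1 was lower, beside 4315 higher and 4410 lower of all 15994 tested genes.

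HSPB8, HSPB1 and HSPB3 were lower among the small heat shock proteins. HSPB8 (ENSG00000152137, chromosome 12, 119171555 to 119224855, plus strand), the partner of BAG3 in clearing misfolded proteins, had the largest fall of any tested member. Its normalized counts were 2118, 1959 and 2133 in KYSE70 and 329.6, 366 and 366 in NRF2null-KYSE70. The NRF2null-KYSE70 libraries lay close together, far under all KYSE70 libraries, and kept 17.1% of the parental mean. The level was 5.85-fold lower (log2 fold change -2.55, SE 0.081, limma adjusted p = 7.81e-11). It is on 12q, where the median was -0.38, and its arm-centred value was -2.17. BAG3, its partner, rose 1.20-fold (limma adjusted p = 0.000563).

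HSPB1 (HSP27; chromosome 7, 76302673 to 76304295), by far the most abundant small heat shock protein RNA here, had 35295, 37202 and 40399.7 normalized counts in KYSE70 and 22179, 23741 and 25001 in NRF2null-KYSE70. The groups were separate, and the clone kept 62.8% of the parental mean (log2 fold change -0.67, SE 0.060, limma adjusted p = 8.58e-07). The median of 7q was 0.17, so arm-centring moved the value to -0.84. HSPB3 (chromosome 5, 54455699 to 54456377), a form known mainly from muscle, had 581, 602 and 649 in KYSE70 and 259, 343 and 315 in NRF2null-KYSE70 (log2 fold change -1.004, SE 0.12, limma adjusted p = 1.38e-05). Its libraries did not overlap. HSPB3 was under the cut-off on the fold change with a pseudocount of 5, quantile normalization, DESeq2 and edgeR, and without KYSE70 library 3 or NRF2null-KYSE70 library 1. HSPB11, named with this family but an intraflagellar transport protein (IFT25), was 1.16-fold lower (limma adjusted p = 0.0210). HSPB6 had 25.0 ± 9.28 and 32.8 ± 6.65 normalized counts (SD, n = 3 per line), with overlapping libraries. HSPB2 and HSPB7 had no read in any library, and HSPB9 had at most 3 reads in a library.

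Most members on the HSF1 target list, of the cytosol and mitochondria, did not pass, and most that passed were lower. The share called was 42.9%, beside 57.6% of all tested genes. Of 14 members known as HSF1 targets, HSPA4L was higher, DNAJA1, DNAJB4, HSPA1B, HSPB1 and HSPE1 were lower, and 8 did not pass, with a median log2 fold change of -0.05. After arm-centring, 6 were lower, HSP90AA1 being added (-0.14, limma adjusted p = 0.0467). The 14 genes took 1.32% of reads in KYSE70 and 1.22% in NRF2null-KYSE70, with libraries that did not overlap. Without the trend in limma, 3 were lower, DNAJA1 and HSPE1 no longer passing. HSF1 itself was 1.74-fold higher, at 2924 ± 93.9 and 5084 ± 132 normalized counts (SD, n = 3 per line; limma adjusted p = 3.95e-08), on an arm, 8q, with a median of 0.26. HSF4 went from 211 ± 25.1 to 106 ± 12.8 (SD, n = 3 per line; log2 fold change -0.99, limma adjusted p = 0.000308), and HSF2 did not pass (limma adjusted p = 0.123).

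HSP90AA1, HSP90AB1, HSPA8 and HSPD1, the 4 members with the highest normalized counts in KYSE70, did not pass the test. HSPA8 (HSC70), the constitutive HSP70, had 137959, 138737 and 138321 normalized counts in KYSE70 and 125833, 143639 and 143703 in NRF2null-KYSE70. The libraries overlapped, with 1 NRF2null-KYSE70 library below all others and the remaining pair above them (log2 fold change -0.01, SE 0.059, limma adjusted p = 0.908). HSP90AB1, the constitutive cytosolic HSP90, had 160583 ± 2685 and 160737 ± 3834 (SD, n = 3 per line; limma adjusted p = 0.985). HSP90AA1, the inducible one, had 243128, 235594 and 235367 in KYSE70 and 235060.0, 222496 and 217365 in NRF2null-KYSE70. Its libraries just failed to overlap, and the difference did not pass (log2 fold change -0.08, SE 0.054, limma adjusted p = 0.219). It passed as lower with total scaling (log2 fold change -0.16), after arm-centring and without NRF2null-KYSE70 library 1 (-0.11). HSPD1 had 81255 ± 1236 and 83819 ± 1599 (SD, n = 3 per line; limma adjusted p = 0.425), HSPH1 28644 ± 595 and 30789 ± 1469 (0.0832) and DNAJB1, the main HSP40 partner of inducible HSP70, 17168 ± 601 and 17411 ± 292 (0.716). With quantile normalization DNAJB1 passed as lower (log2 fold change -0.12, limma adjusted p = 0.0451). The sign of the small differences of HSPA8, HSP90AB1, HSPD1, HSPH1, DNAJB1 and HSPA1A turned under at least 1 alternative processing.

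HSPA8, HSP90AB1, HSP90AA1 and HSPD1 hold a 3-unit heat shock element in the promoter window, as do DNAJB6 and HSPA6. The sites are shown so that they can be read beside the fold changes, with all letters of the element in capitals.
HSP90AA1, minus strand, first base at -88 from the start site: TTCCGGAAGGTTC
HSP90AB1, plus strand, first base at -165: TTCTGGAAGATTC
HSP90AB1, plus strand, first base at -112: TTCTGGAAGCTTC
HSPA8, minus strand, first base at -55: TTCTGGAAGGTTC
HSPA8, minus strand, first base at -230: GAAAGTTCCAGAA
HSPD1, minus strand, first base at -240: GAAAGTTCTGGAA
HSPD1, minus strand, first base at -245, overlapping the last: TTCTGGAAAGTTC
DNAJB6, plus strand, first base at -131: GAACCTTCGCGAA
HSPA6, plus strand, first base at -74: TTCGCGAAAGTTC
The log2 fold changes of these genes were -0.08 for HSP90AA1, 0.0012 for HSP90AB1, -0.01 for HSPA8, 0.04 for HSPD1 and 0.66 for DNAJB6. DNAJA1, the remaining member counted with such an element, held GAACTTTCCAGAA just inside the start site and had a log2 fold change of -0.13. The HSPD1 elements (chromosome 2, 197500068 to 197500085) also lie ahead of HSPE1, which starts at 197500140 on the plus strand. HSPE1 was not counted among the members with the element and had a log2 fold change of -0.27. HSPA6, a strictly heat-induced HSP70, was near its floor, with 12.5, 29.0 and 18.98 normalized counts in KYSE70 and 4.06, 5.88 and 19.4 in NRF2null-KYSE70. Its libraries overlapped and it did not pass (log2 fold change -1.17, SE 0.61, limma adjusted p = 0.119), although it passed both thresholds without NRF2null-KYSE70 library 3.

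HSPA1A and HSPA1B, the classical inducible HSP70 pair on 6p, encode nearly the same sequence. Their coding sequences of 1923 bases differ at 4 positions, and 87.9% of the stretches of 150 bases, the read length, are identical in both. How reads with several alignments were counted was not stated, so the split between the genes is uncertain. As listed, HSPA1B had 8399.7, 7834 and 7804 normalized counts in KYSE70 and 7079.7, 6547 and 6291 in NRF2null-KYSE70 (log2 fold change -0.27, SE 0.055, limma adjusted p = 0.000961). All NRF2null-KYSE70 libraries were below those of KYSE70. HSPA1A had 317, 246 and 363 in KYSE70 and 284, 319.7 and 305 in NRF2null-KYSE70, with overlap (limma adjusted p = 0.957). HSPA1A made up 3.04% to 4.66% of the sum of both in a library. The sum went from 8321 ± 346 to 6942 ± 389 (SD, n = 3 per line), so the clone kept 83.4%. HSPA1B also shares 36.5% of its exon bases with a long non-coding RNA gene on its strand.

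DNAJB4 (HLJ1; chromosome 1, 77979175 to 78017964), a cytosolic HSP40 close to DNAJB1, had the largest fall of the DNAJ members on the HSF1 target list (DNAJA1, DNAJB1 and DNAJB4). Its normalized counts were 1763, 1908 and 1853 in KYSE70 and 778, 784 and 760.3 in NRF2null-KYSE70. The clone's libraries were tightly grouped at 42.0% of the parental mean (log2 fold change -1.25, SE 0.068, limma adjusted p = 9.06e-09). With HSPB8 it was 1 of 2 members whose change was larger than 1 on the log2 scale in limma's treat test. HSPA4L, an HSP110-type exchange factor, was the HSF1 target that rose, from 12013 ± 330.3 to 16936 ± 599 (SD, n = 3 per line; log2 fold change 0.50, SE 0.046, limma adjusted p = 1.35e-06). Its relative HSPA4 rose 1.16-fold, a call lost after arm-centring (limma adjusted p = 0.0730).

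Outside these lists, HSPA2 showed the largest rise. HSPA2 (chromosome 14, 64535905 to 64546173), an HSP70 best known from the testis, had 287, 298 and 269 normalized counts in KYSE70 and 655, 571 and 651 in NRF2null-KYSE70. The groups did not overlap, and the rise was 2.20-fold (log2 fold change 1.13, SE 0.11, limma adjusted p = 1.53e-06). HSPA12A (chromosome 10, 116671192 to 116850251), a distant relative of HSP70, fell to 57.0% of the parental mean, from 1821, 1723 and 1704 to 1075, 913 and 1006 normalized counts (log2 fold change -0.81, SE 0.076, limma adjusted p = 1.32e-06). DNAJB6 (chromosome 7, 157335381 to 157417439), which suppresses aggregation of polyglutamine proteins, rose 1.58-fold, from 4496, 4856 and 4992 to 7490.5, 7658 and 7550.5 (log2 fold change 0.66, SE 0.051, limma adjusted p = 2.29e-07). On 7q the median was 0.17, and arm-centring left 0.50. DNAJB5, close in sequence to DNAJB4, rose 1.73-fold, from 305 ± 5.19 to 526 ± 31.5 (SD, n = 3 per line; limma adjusted p = 3.02e-05). DNAJB4 and DNAJB5 thus moved in opposite directions.

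The mitochondrial members were called in both directions, at a share near that of all tested genes (55.6% beside 57.6%). Of 10, 9 were tested: HSPA9 was higher, DNAJA3, DNAJC11, DNAJC30 and HSPE1 were lower and 4 did not pass, with a median log2 fold change of -0.04. HSPA9 (mortalin), the HSP70 that pulls proteins into the matrix, had 48059.5, 47749 and 47465 normalized counts in KYSE70 and 59096, 56269 and 55113 in NRF2null-KYSE70 (log2 fold change 0.25, SE 0.046, limma adjusted p = 0.000443). Its exchange factors GRPEL1 and GRPEL2 rose 1.33-fold and 1.26-fold (limma adjusted p = 1.04e-05 and 0.000531). DNAJA3 (Tid1), a matrix HSP40, had 8785, 9183 and 9145 in KYSE70 and 6251, 6516 and 6450.0 in NRF2null-KYSE70, without overlap (log2 fold change -0.50, limma adjusted p = 1.13e-06). It lies on 16p, where the median was -0.49, and its arm-centred value was -0.01 (limma adjusted p = 0.871). HSPE1 (HSP10) was 1.20-fold lower, from 3043 ± 265 to 2530.3 ± 196 (SD, n = 3 per line; limma adjusted p = 0.00856), while its partner HSPD1 did not pass. HSPE1 shares 7.41% of its exon bases with HSPD1 on the opposite strand and 10.5% with the read-through gene HSPE1-MOB4. DNAJC15 had a read in 1 of the 6 libraries.

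The remaining DNAJC genes changed in both directions, and DNAJC12 was the one past both thresholds. DNAJC18, DNAJC6 and DNAJC13 rose by 0.52, 0.51 and 0.38 on the log2 scale. DNAJC6 (auxilin), which uncoats clathrin vesicles, was at 268 ± 28.4 and 381 ± 30.8 normalized counts (SD, n = 3 per line; limma adjusted p = 0.00406). DNAJC13, an endosomal protein on 3q, was not past the threshold after arm-centring (limma adjusted p = 0.329). DNAJC9, a histone chaperone, was 1.33-fold lower, from 6414 ± 109 to 4829.8 ± 87.2 (SD, n = 3 per line; limma adjusted p = 7.17e-06), although 56.5% of its exon bases lie opposite FAM149B1. DNAJC22 on 12q and DNAJC5 on 20q (median -0.24) were lower, with arm-centred values of 0.08 and 0.04 that did not pass. DNAJC12 had few reads, with 14.2, 13.6 and 21.1 normalized counts in KYSE70 and 5.07, 3.92 and 4.57 in NRF2null-KYSE70. Its libraries did not overlap (log2 fold change -1.63, SE 0.55, limma adjusted p = 0.0224). The call rested on KYSE70 library 3, without which the limma adjusted p was 0.0856, and on the filter, without which it was 0.0520.

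Co-chaperones and the cytosolic chaperonin were compared as partners of these members. Of 26 heat shock factors and co-chaperones, 7 were higher, 13 lower and 6 did not pass (median log2 fold change -0.10), and none had a change of 1 or more. The share called was 76.9%, beside 57.6% of all tested genes (29.3% higher, 28.3% lower). The HSP90 co-chaperones PTGES3 (p23), CDC37, FKBP4, FKBP5 and AHSA1 were lower, with log2 fold changes of -0.63, -0.34, -0.32, -0.50 and -0.15. CHORDC1, also an HSP90 co-chaperone, was higher (log2 fold change 0.17, limma adjusted p = 0.00695), and PPID (0.12) and UNC45A (0.05) did not pass. UNC45A passed as lower after arm-centring (-0.27, limma adjusted p = 0.00106), and PPID was then at -0.02 and did not pass. PTGES3 lies on 12q, and its arm-centred value was -0.25. The HSP70 exchange factors BAG1 and BAG2 were 1.49-fold and 1.498-fold lower. Of the other BAG genes listed, BAG3 (log2 fold change 0.27) and BAG6 (0.19, limma adjusted p = 0.00683) were higher, and BAG4 and BAG5 did not pass. BAG4 passed as higher after arm-centring (0.37). ST13 (HIP), which steadies HSP70 on its client, rose 1.86-fold, from 18446, 18189 and 18080.3 to 33680.4, 34324 and 33509 (limma adjusted p = 2.31e-09). STIP1 (HOP), the bridge between HSP70 and HSP90, had a limma adjusted p of 0.423. Of 14 CCT and prefoldin genes, 4 were higher, 4 lower and 6 did not pass, with a median of -0.01. Their share called, 57.1%, was near that of all tested genes. After arm-centring 2 of the 14 were higher and 7 lower, with a median of -0.11. CCT2 and PFDN5, the lowest pair, had log2 fold changes of -0.58 and -0.66, and both lie on 12q.

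**Figure D3:**
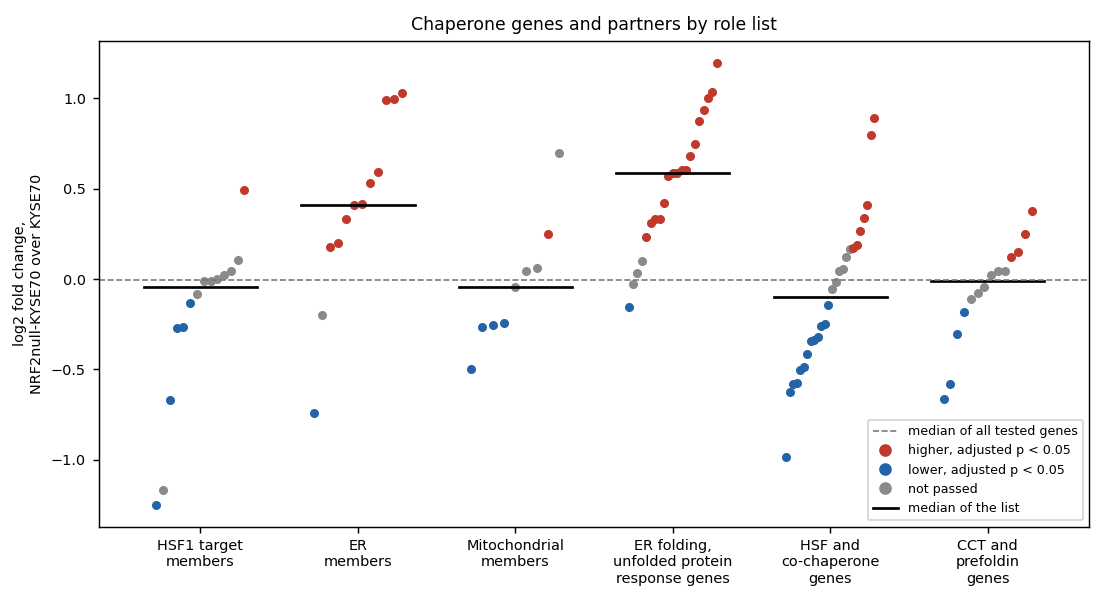
Log2 fold change of NRF2null-KYSE70 over KYSE70 (vertical axis) for each tested gene (point) of 3 lists of members and 3 lists of partner genes, with the median of each list (black bar) and of all tested genes (dashed line). The ER members and the ER folding genes have medians of 0.41 and 0.58, and the other 4 lists have medians between -0.10 and -0.01.

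Levels of different genes were compared per kb of the canonical transcript. In KYSE70 the order began with HSP90AA1 (73739 normalized counts per kb), HSP90AB1 (62851), HSPA8 (61104), HSPB1 (48433), HSPD1 (36194), HSP90B1 (22777) and HSPA5 (14419). In NRF2null-KYSE70 HSPB1 was at 30425, HSP90B1 at 30400 and HSPA5 at 28630 per kb, so that an order with HSPB1 well ahead of the ER pair became 3 nearly equal levels. These 3 were the only ones of the 7 that passed the test between the lines. Reads of members outside the tested 62 were few, as 5 had no read in any library, 7 had at most 3 reads in each library, and the highest count of the 10 was 13 reads. They include HSPA7, HSPA12B, DNAJB3, DNAJB7, DNAJB8 and DNAJB13, and differences in them were not detectable at this depth. HSPA14 appears in the table under 2 identifiers that overlap on 10p. The member row did not pass (limma adjusted p = 0.424), and the second, ENSG00000284024, was lower (log2 fold change -0.33, limma adjusted p = 0.00220). The median coefficient of variation between libraries was 4.18% in KYSE70 and 5.96% in NRF2null-KYSE70 for the tested members. It was 6.55% and 8.16% for all tested genes, which were not matched to the members by expression level.

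**Figure D4:**
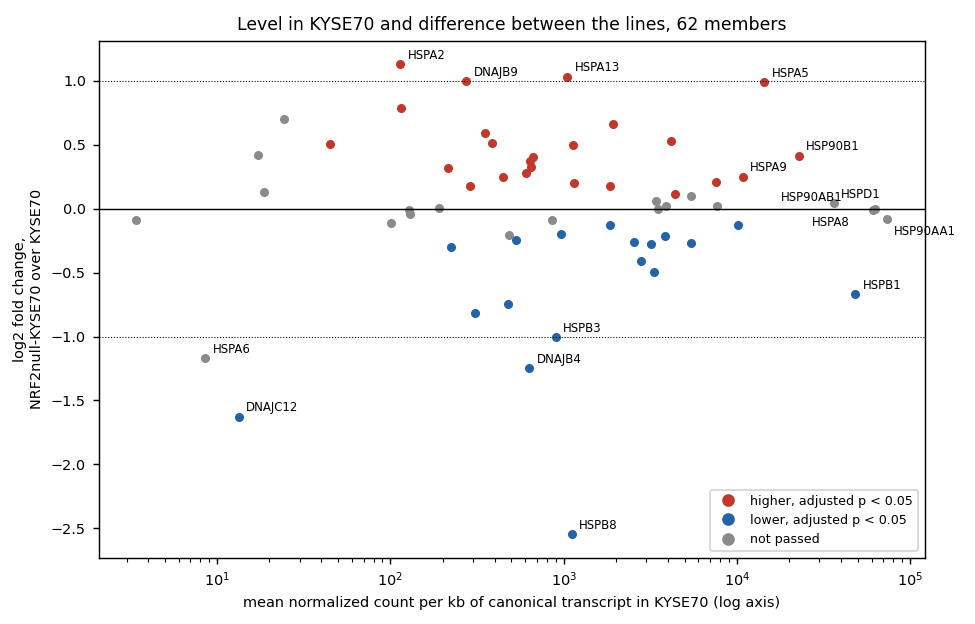
Mean normalized count per kb of canonical transcript in KYSE70 (horizontal axis, log scale) against the log2 fold change of NRF2null-KYSE70 over KYSE70 (vertical axis) for the 62 tested members, colored by the limma test. At the abundant end HSP90AA1, HSP90AB1, HSPA8 and HSPD1 lie near 0, HSPB1 lies at -0.67 and HSPA5 at 0.99.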

How the data were processed

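RNA-seq measured gene expression in 6 libraries, 3 each of KYSE70 and NRF2null-KYSE70. Per the submitters' processing notes and methods, FastQC 0.11.5, cutadapt 1.12, STAR 2.6.90c (hg38) and featureCounts 1.5.1 were used. A RefSeq annotation is named, whereas the table lists Ensembl identifiers. The authors deposited a signal of DESeq2-normalized counts. Whole reads were recovered from it for 100% of values (tolerance 0.05 reads). Columns carried the line but no replicate number, so libraries are numbered by table order.

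The members and lists were chosen with earlier results of these data known. Where a symbol had several rows, the row with the highest mean was used. Genes with a mean of at least 10 were fitted together in limma 3.58.1 (R 4.3.3; lmFit, eBayes with trend) on log2(normalized count + 1), two-sided, with Benjamini-Hochberg adjustment over 15994 genes. The thresholds were 0.05 for the adjusted p and 1 for the size of the log2 fold change. The steps were tested on simulated data. The 24 members named by rule were 13 fixed genes, every member past both thresholds and the 6 largest rises and falls. The rises and falls were taken at a mean of at least 50 without overlap. Other genes were named after their values were seen.

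Alternatives were pseudocounts of 0.1 and 5, no filter, a mean of 50, TMM, total and quantile scaling, no trend, robust eBayes, DESeq2 1.42.0 and edgeR 4.0.16 on whole reads, omission of each library, treat, no fold cut-off and arm-centring (arms split at approximate centromere positions entered by hand, medians over genes with a mean of at least 50). Positions came from GENCODE v44 and promoters from RefSeq. The number of reads limits precision for members with few reads, and floors cover counting error only.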

Additional observations from a re-analysis of the deposited data

How the results depend on the processing

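No paired analysis was possible because the columns carried no replicate numbers. The count of 6 members past both thresholds became 2 with the treat test, 42 with no cut-off on the fold change, and 4 to 9 with each library left out. Over all tested genes, 2344 became 970 and 9206 under the first 2 of these, 1511 with a mean of at least 50, and 2228 to 2346 with each library left out. HSPB3 was lost with DESeq2 and edgeR, which each called 5 members. Members higher at an adjusted p under 0.05 numbered 21 to 24, and lower 14 to 19, with libraries left out. The main counts of 24 higher and 18 lower became 20 and 20 with total scaling, 18 and 18 after arm-centring and 22 and 12 without the limma trend. The ER members higher numbered 9 to 10 with libraries left out, 9 with quantile normalization or without the trend, and 8 with total scaling or arm-centring. Among HSF1 target members, 1 to 2 were higher and 4 to 6 lower with libraries left out, the second rise appearing without NRF2null-KYSE70 library 3, and 3 were lower without the limma trend. The median of members, 0.02, became -0.055 with total scaling and lay between 0.013 and 0.049 with libraries left out.

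Signs turned for members near 0. DNAJB1 was at -0.055 (total scaling), -0.12 (quantile, where it passed as lower with a limma adjusted p of 0.0451) and -0.0047 to 0.046 with libraries left out. HSP90AB1 was at -0.00024 (TMM), -0.074 (total scaling), -0.00043 (DESeq2), -0.00023 (edgeR) and -0.017 to 0.017 with libraries left out. HSPA1A was at 0.060 (quantile) and -0.17 to 0.11 with libraries left out. HSPA8 was at 0.014 (arm-centring) and -0.041 to 0.055 with libraries left out. HSPD1 was at -0.031 (total scaling) and -0.012 (arm-centring), and HSPH1 at -0.0016 (quantile) and -0.027 (arm-centring). The causes were not tested. Of 737 values over 41 genes, 703 kept direction and call, 20 turned sign, 10 lost and 4 gained the call.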
